A study of Drosophila melanogaster with 2 samples.

Results

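Chemosensation in Drosophila melanogaster rests on 3 large families of receptor genes. Odorant receptors (Or genes) are ligand-gated channels of olfactory neurons that work with the shared subunit Orco. Gustatory receptors (Gr genes) detect sugars, bitter compounds and CO2. Ionotropic receptors (Ir genes) are relatives of synaptic glutamate receptors that detect acids, amines, temperature and humidity, often with a co-receptor such as Ir8a, Ir25a or Ir76b. Most of these genes are expressed in few sensory neurons, so they are a minute part of the transcription of a whole animal.

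The genes described here were chosen by name alone, as the protein-coding genes of the annotation whose symbol is Or, Gr or Ir followed by a digit. They number 179 of 13945 protein-coding genes on the 6 chromosome arms that hold called regions, with 59 odorant, 60 gustatory and 60 ionotropic receptor genes. A further 7 genes with such symbols are annotated as pseudogenes and were left out, and Orco is outside the rule by its symbol. Chromatin immunoprecipitation with sequencing (ChIP-seq) was done on whole larvae of the third instar at the wandering stage, males and females pooled and of unknown age, of a stable transgenic line whose Eyeless protein (ey, the fly Pax6 factor) carries GFP at its C-terminus. Per the labels' description the antibody was against GFP, although their antibody entry reads ey. The labels number the biological replicates 1 and 3, both of the same genotype and stage, and no other group was analysed. Whole larvae mix all tissues, so binding in few cells and weak binding in many cannot be told apart. A region near a receptor gene may also serve another gene, which distance alone cannot tell.

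The authors' optimal list held 6835 regions with signals of 79.3 or more, and the pooled list from which it is the strongest part held 30000 with signals of 15.4 or more. Replicate 1 had 30000 regions and replicate 3 had 27637. The lists give no read totals, and sequencing depth is therefore unknown. All coordinates below are in dm6.

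Receptor genes rarely had an optimal summit close by. Of the 179 genes, 9 had one inside the gene or within 1 kb, which is 5.03% (95% exact interval 2.32 to 9.33), against 34.1% of all protein-coding genes. The count was 3 of 59 odorant receptor genes (5.08%, interval 1.06 to 14.1), 2 of 60 gustatory receptor genes (3.33%, interval 0.406 to 11.5) and 4 of 60 ionotropic receptor genes (6.67%, interval 1.85 to 16.2). The 3 intervals overlap widely, and no difference among the families was tested. The 9 genes were Ir94h, Gr32a, Or85f, Ir68b, Or9a, Ir31a, Ir60e, Gr89a and Or67c, in order of signal, each with 1 summit that it shared with no other receptor gene.

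**Figure D1:**
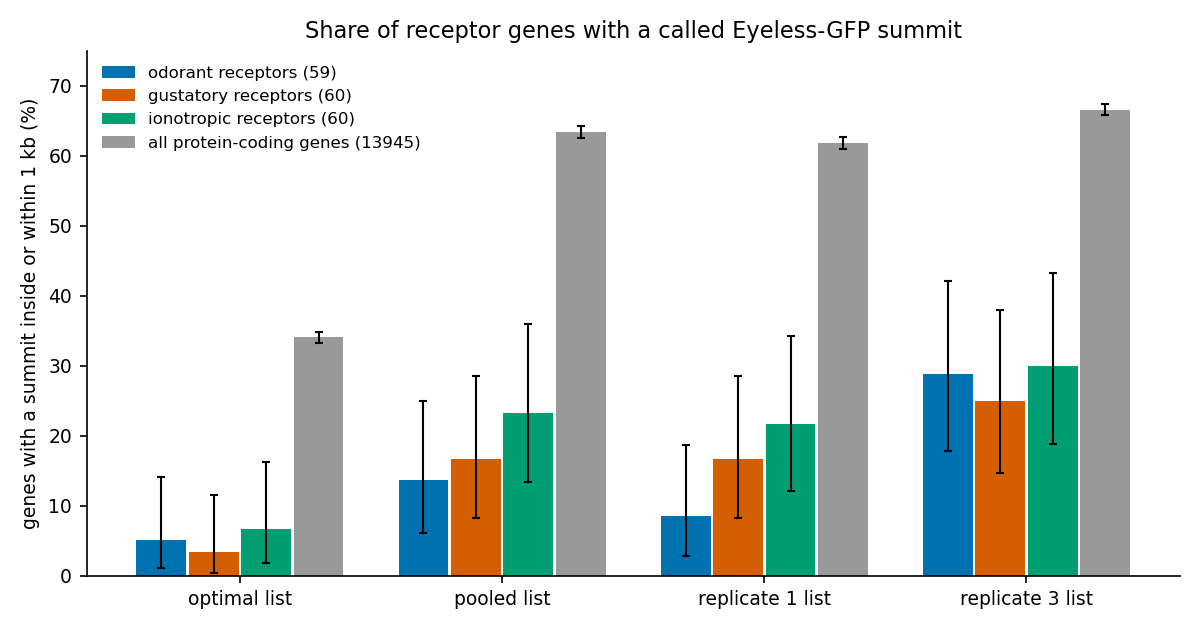
Percentage of genes with a summit inside them or within 1 kb (vertical axis) in each of the 4 lists, for the 3 receptor families and for all protein-coding genes; black bars are 95% exact binomial intervals over genes. In the optimal list the families stand at 5.08, 3.33 and 6.67%, against 34.1% for all genes, and in every list each family is lower than all genes.

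No optimal summit lay inside a receptor gene. The 179 genes cover 0.467 Mb, where a count of 0 allows up to 6.43 summits per Mb (3 counts over that length) and the exact 95% Poisson interval reaches 7.9, against 45.3 summits per Mb inside all protein-coding genes. By gene, the share with an optimal summit inside it was 0 of 179, against 14.9% of all protein-coding genes. With 1 kb added on either side the receptor genes held 9 summits in 0.75 Mb, or 12 per Mb (exact Poisson interval 5.49 to 22.8), against 58.5 per Mb for all protein-coding genes. A single receptor gene, Ir60e, had an optimal summit within 500 bp of its own transcription start site (TSS), 0.559% of the 179, against 23.0% of all protein-coding genes.

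Receptor genes are short, and a short gene offers less room for a summit. Their median length is 1691 bp, with 1462 bp for odorant, 1397 bp for gustatory and 1908 bp for ionotropic receptor genes, against 2166 bp for all protein-coding genes. Among genes of 1 to 3 kb alone, 9 of 157 receptor genes (5.73%, interval 2.65 to 10.6) had an optimal summit, against 28.8% of all protein-coding genes of that length. The lower share of the receptor genes was thus also seen within this class of length.

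A neighbour's promoter can also bring a summit into the window. Of all protein-coding genes, 42.9% had an optimal summit where the TSS of another coding gene lay in the same window, but 19.5% where none did. Among receptor genes the shares were 5 of 75 (6.67%) with such a TSS and 4 of 104 (3.85%) without. Many of the neighbours are receptor genes themselves, since 70 of the 179 have another receptor gene within 1 kb. With a TSS of a coding gene of some other kind in the window, 5 of 39 receptor genes (12.8%) had an optimal summit, and without one 4 of 140 (2.86%). The latter 4 include Or9a, whose summit lay at the limit of the window, with the TSS of Neb-cGP 60 bp beyond it.

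The 9 summits fell into 2 kinds of place, and all of them lay between genes. Within 500 bp of the TSS of a coding gene that is no receptor gene there were 6, at Gr32a, Or85f, Ir68b, Or9a, Ir31a and Ir60e. The other 3, at Ir94h, Gr89a and Or67c, were more than 500 bp from any annotated TSS, their own included. None lay in a host gene. The share of all optimal summits in such places was not counted. By gene, summits within 500 bp of another coding gene's TSS were set aside (for receptor genes, a gene outside the families). An optimal summit then remained at 3 receptor genes (1.68%), against 18.5% of all protein-coding genes.

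**Figure D2:**
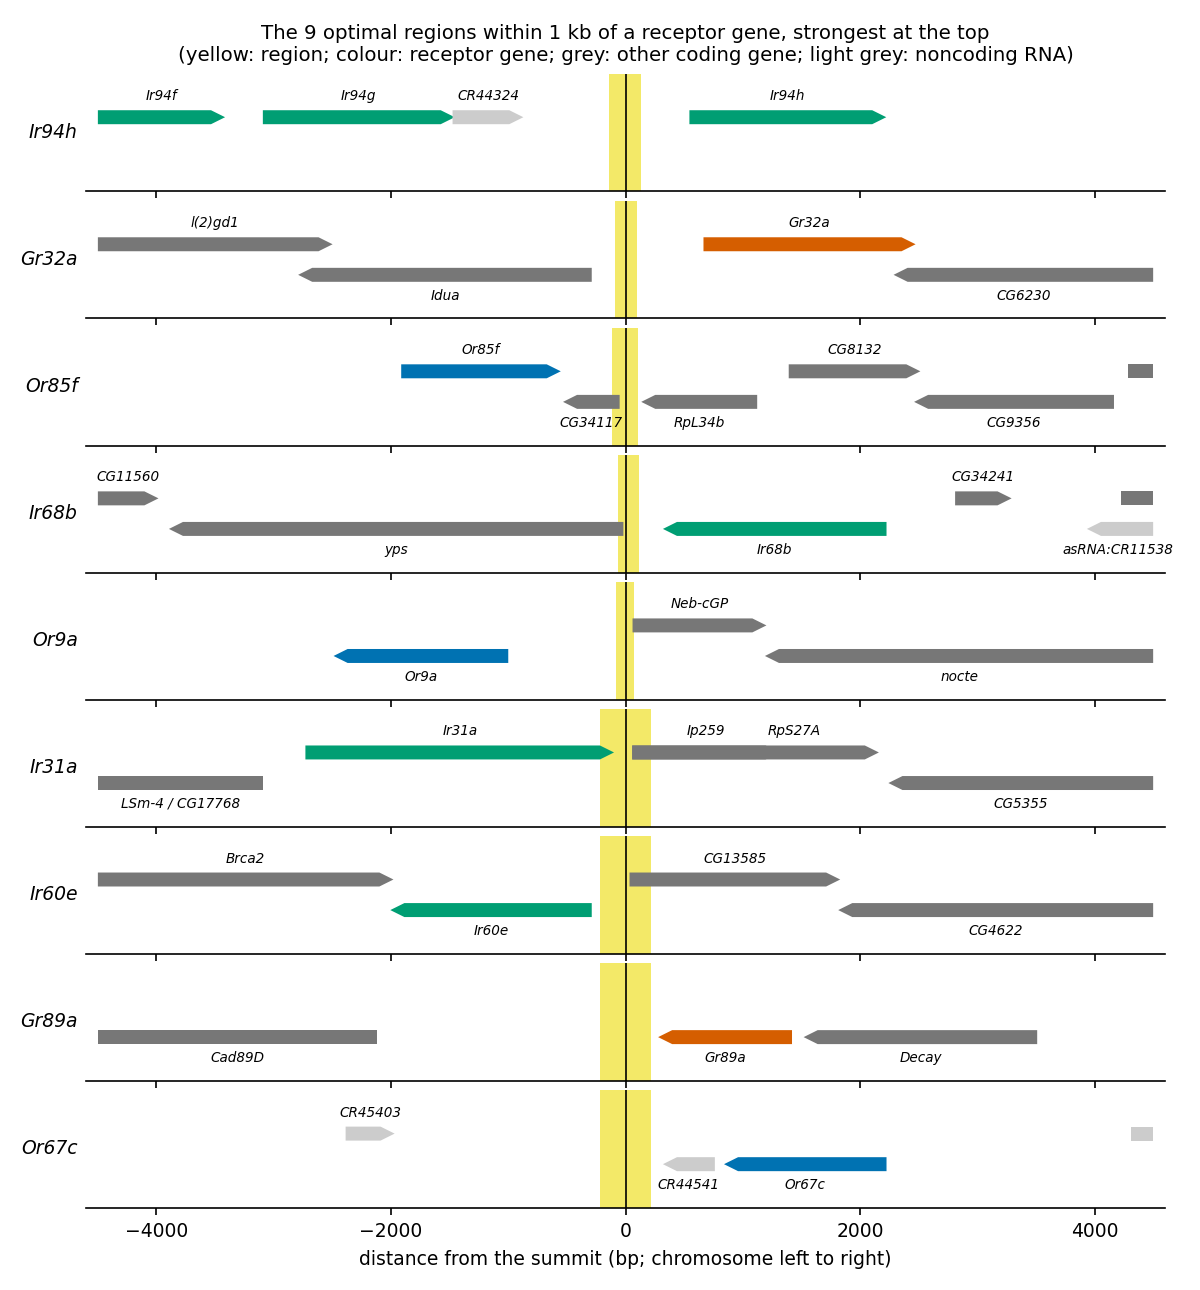
Gene maps around the 9 optimal summits, 1 row each, strongest at the top; the horizontal axis is the distance from the summit in bp, the yellow band is the called region, coloured arrows are receptor genes (blue Or, orange Gr, green Ir), grey arrows other coding genes and light grey arrows noncoding RNAs, and genes whose 3′ end is cut off at the edge have no arrowhead. In 6 rows the start of a grey gene lies within 500 bp of the summit, and in the rows of Ir94h, Gr89a and Or67c none does.

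The DNA under the summits without a neighbouring promoter is shown first, because these 3 have no start of another coding gene beside them. Each line is the stretch from 50 bases before to 50 bases after the summit on the forward strand of the Release 6 reference, with matches to the searched motifs in capitals.
Ir94h, chr3R:23486906-23487006: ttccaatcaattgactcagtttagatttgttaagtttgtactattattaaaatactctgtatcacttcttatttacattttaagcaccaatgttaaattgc
Gr89a, chr3R:16497489-16497589: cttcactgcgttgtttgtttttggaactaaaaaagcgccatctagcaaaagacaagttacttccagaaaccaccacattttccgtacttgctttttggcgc
Or67c, chr3L:10242430-10242530: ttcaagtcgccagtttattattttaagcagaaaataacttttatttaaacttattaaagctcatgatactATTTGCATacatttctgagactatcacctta

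Of the summits beside another gene's start, 4 are shown for contrast, in the same form. Those at Ir31a and Ir60e are not shown and held none of the searched motifs. The 4 shown lie 18 bp from the TSS of yps, 60 bp from that of Neb-cGP, 50 bp from that of CG34117 and 288 bp from that of Idua.
Ir68b, chr3L:12125118-12125218: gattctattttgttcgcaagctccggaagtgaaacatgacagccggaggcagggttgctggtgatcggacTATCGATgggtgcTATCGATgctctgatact
Or9a, chrX:10460626-10460726: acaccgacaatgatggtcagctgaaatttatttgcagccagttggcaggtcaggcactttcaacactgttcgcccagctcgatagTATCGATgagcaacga
Or85f, chr3R:9400053-9400153: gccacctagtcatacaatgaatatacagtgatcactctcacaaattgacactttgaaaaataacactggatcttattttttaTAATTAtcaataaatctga
Gr32a, chr2L:11113299-11113399: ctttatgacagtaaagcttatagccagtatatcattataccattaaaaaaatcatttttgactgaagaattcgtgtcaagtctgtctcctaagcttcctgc

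The stretches differ in base composition. Around the summit, 50 bp to either side, GC content was 25.7% at Ir94h, 26.7% at Or67c, 28.7% at Or85f and 33.7% at Gr32a, and at these 4 it was lower than in windows 300 bp to either side (44.1 to 48.5%). At the other 5 it was between 40.6% and 50.5% and exceeded that of the flanks. The summit was thus lower in GC than its flanks in 4 of 9 cases, against 80.2% of all 6835 optimal summits. The median GC content of the 9 summits was 40.6%, against 33.7% over all optimal summits.

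The searched motifs were counted in the 9 windows, which are too few for a share to be read as a difference from all optimal summits. The homeodomain core TAATTA was found on either strand in 1 of the 9 windows, at Or85f, against 8.79% of all optimal summit windows. The POU octamer ATTTGCAT was found in 1, at Or67c, against 1.52%. POU factors such as acj6 and pdm3 select odorant receptors in olfactory neurons, but a match of letters does not show a site. The DNA replication-related element TATCGATA (DRE), which is common at housekeeping promoters, was in 0 of the 9 windows against 1.57%, and so were GAGAGAG (1.10% of all optimal windows), the E-box CACGTG (0.732%), the palindromic homeodomain dimer site (1.29%) and the Pax6 paired-domain consensus with 1 mismatch (0.219%). After the sequences had been seen, the first 7 letters of the DRE, TATCGAT, which any full DRE also contains, were searched as well. They occurred in 2 windows, at Ir68b (2 copies) and Or9a, against 3.47% of all optimal summit windows.

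Among the ionotropic receptor genes, Ir94h had the strongest summit of all 179 genes. The region (3R, 23486812 to 23487089) lay upstream of Ir94h, 545 bp from its TSS, in the gap between Ir94g and Ir94h. Its signal was 299.6 in the optimal list, rank 1300 of 6835, with 178.2 (rank 1110) in replicate 1 and 121.7 (rank 1614) in replicate 3, and the summits of both replicates were 35 bp apart. The nearest TSS of a coding gene outside the family, that of CG4374, was 14678 bp away, and that of a noncoding RNA, CR44324, 1475 bp. By position it is the one optimal summit at an ionotropic receptor gene with no other promoter beside it.

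The other 3 ionotropic receptor genes shared their summit with a neighbour's promoter. At Ir68b the summit lay downstream of the gene, 18 bp from the TSS of yps, which encodes a Y-box RNA-binding protein, with a signal of 203.3 (rank 2282), 111.8 in replicate 1 and 83.3 in replicate 3. At Ir31a, an antennal receptor for an organic acid, it lay 98 bp past the 3′ end of the gene and 57 bp from the shared start of Ip259 and RpS27A, the gene of a ribosomal protein fused to ubiquitin. The signal there was 122.3 (rank 4351), with 45.6 (rank 6763) in replicate 1 and 69.1 (rank 3516) in replicate 3, the widest gap of ranks among the 9. At Ir60e the summit lay 288 bp upstream of its own TSS and 34 bp from that of CG13585, which points the other way, with a signal of 113.8 (rank 4692), 66.9 in replicate 1 and 40.4 in replicate 3.

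Both gustatory receptor genes with an optimal summit belong to the core set of receptors that most bitter-sensing neurons share. Gr32a, which also detects a male pheromone, had a summit 665 bp upstream of its TSS and 288 bp from the start of Idua, the gene of a lysosomal iduronidase, on the opposite strand. Its signal was 255.2 (rank 1625), with 166 (rank 1251) in replicate 1 and 88.7 (rank 2562) in replicate 3. Gr89a had a summit 278 bp past its 3′ end (3R, 16497324 to 16497753), 2117 bp from the nearest TSS of another gene, that of the cadherin gene Cad89D. Here the signal was 106.2 (rank 5046), with 57 (rank 5165) and 51.6 (rank 4917) in replicates 1 and 3. Of the 5 genes of this core set, Gr33a, Gr39a and Gr66a had no optimal and no pooled summit. With 2 of 5 against 34.1% of all protein-coding genes, the set is too small for its share to be read as a difference.

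The odorant receptor genes with an optimal summit are known from adult antennal neurons. Or85f, a receptor for odours of parasitoid wasps, had a summit 552 bp past its 3′ end and 50 bp from the TSS of CG34117, with a signal of 245.9 (rank 1719), 124.4 in replicate 1 and 111.7 in replicate 3. Or9a had one exactly 1000 bp upstream of its TSS, at the very limit of the window, and 60 bp from the TSS of Neb-cGP. The signal at Or9a was 144.6 (rank 3558), with 77.1 and 65.4 in replicates 1 and 3, and the summit of replicate 1 lay just outside the window. Or67c had the weakest of the 9 regions (3L, 10242265 to 10242694), 840 bp past its 3′ end and 762 bp from the TSS of the noncoding RNA CR44541, with the nearest start of another coding gene 17240 bp away. Its signal was 89.7 (rank 6024), with 54.8 (rank 5439) in replicate 1 and 35 (rank 7221) in replicate 3, so that in replicate 3 it fell below the 6835 strongest regions.

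**Figure D3:**
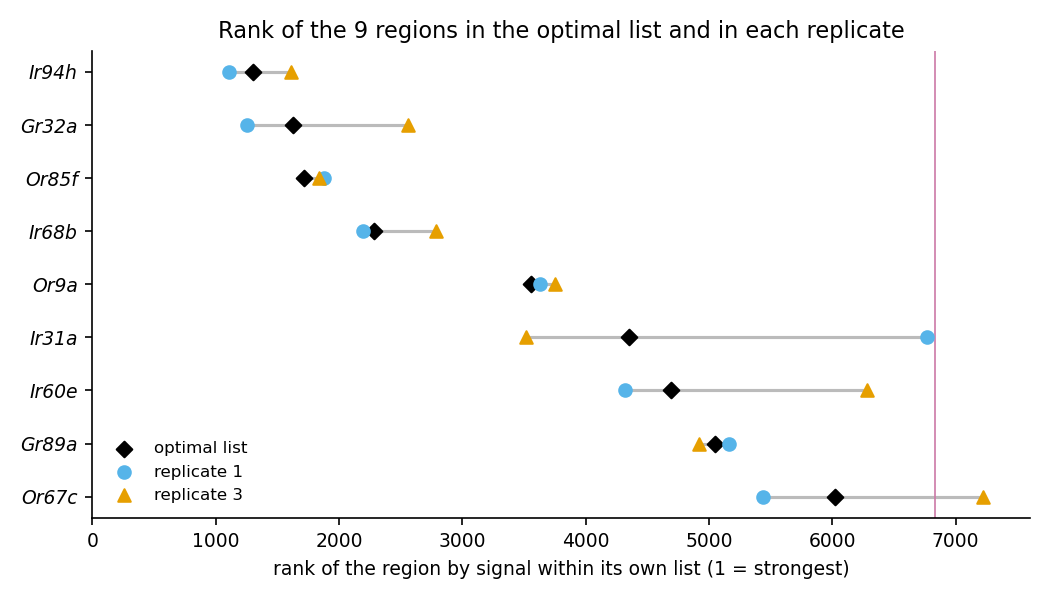
Rank of the 9 regions by signal within the optimal list (diamonds), replicate 1 (circles) and replicate 3 (triangles), 1 row per gene; the horizontal axis is the rank within each list, 1 being the strongest, and the vertical line marks rank 6835, the size of the optimal list. All 9 regions were found in both replicates, and only Or67c in replicate 3, at rank 7221, lies right of the line.

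The 9 regions were present in both replicates, with summits 5 to 65 bp apart. Their ranks in the optimal list ran from 1300 to 6024, and none was among the 1000 strongest. The median signal of the strongest summit was 144.6 for the 9 genes, against 185.3 for the 4749 protein-coding genes with an optimal summit. That comparison is uneven, because the 9 genes had 1 summit each and other genes had up to 33. Over all 6835 optimal regions the median signal was 149, close to that of the 9. Taking the 6835 strongest regions of a replicate in place of the optimal list, 9 receptor genes had a summit in replicate 1, 8 in replicate 3 and 7 in both, against 33.4, 34.5 and 29.4% of all protein-coding genes.

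Most receptor genes lay far from any optimal summit. The median distance from the gene to the nearest one was 12736 bp, against 3813 bp for all protein-coding genes and 4315.5 bp for those of 1 to 3 kb. Of the receptor genes 61.5% were more than 10 kb away, against 30.7% of all protein-coding genes. Odorant receptor genes had the fewest optimal summits in their surroundings, with 4 of 59 (6.78%) within 5 kb, while 19 of 60 gustatory (31.7%) and 17 of 60 ionotropic receptor genes (28.3%) had one, against 55.3% of all protein-coding genes. These differences among the families were not tested. The odorant receptor gene added by the wider window was Or43b, 4149 bp from a summit. The farthest receptor genes were Ir41a, whose annotated span of 104437 bp is the longest of the 179, at 735661 bp, Or74a at 87025 bp and Ir11a at 85353 bp.

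**Figure D4:**
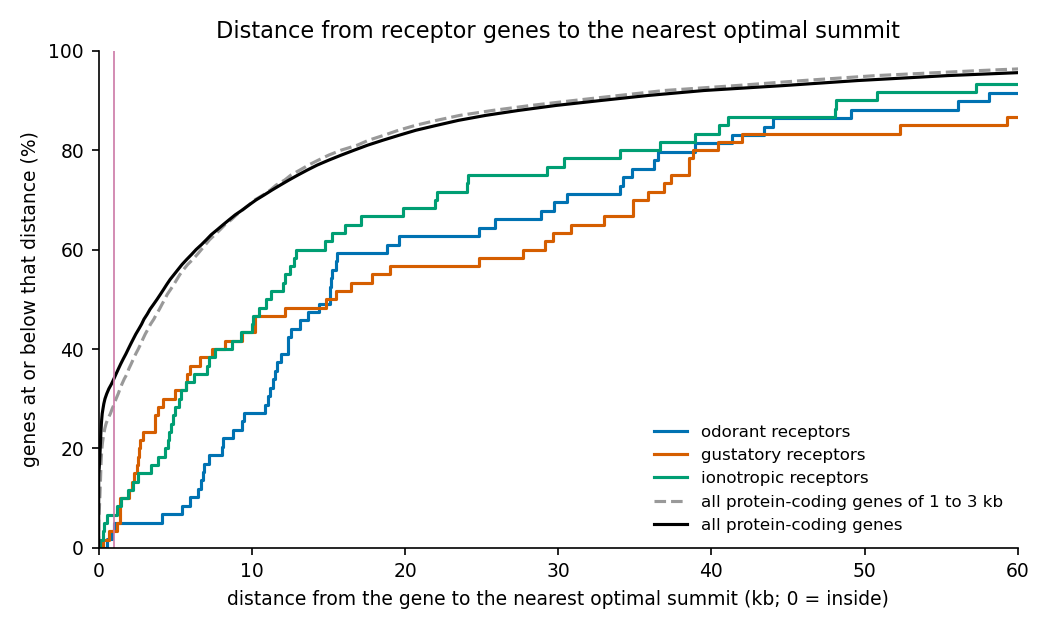
Cumulative percentage of genes (vertical axis) against the distance from the gene to the nearest optimal summit in kb (horizontal axis, shown to 60 kb), for the 3 receptor families, for protein-coding genes of 1 to 3 kb and for all protein-coding genes; the vertical line marks the window of 1 kb. All 3 families run below both curves for the protein-coding genes, with medians of 15073, 15178 and 11092.5 bp for odorant, gustatory and ionotropic receptor genes, against 3813 bp.

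The share of receptor genes was also the lower one in the weaker lists. A pooled summit was found at 32 of the 179 receptor genes (17.9%, interval 12.6 to 24.3), against 63.4% of all protein-coding genes. The count was 8 odorant (13.6%), 10 gustatory (16.7%) and 14 ionotropic receptor genes (23.3%). Among genes of 1 to 3 kb it was 29 of 157 receptor genes (18.5%), against 59.5% of all protein-coding genes of that length. In the list of replicate 1 the count was 28 (15.6%, against 61.8% of all genes), and in that of replicate 3 it was 50 (27.9%, against 66.6%). In none of the 4 lists did 121 receptor genes (67.6%) have a summit, against 24.5% of all protein-coding genes.

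The 32 genes had 51 pooled summits in all, and 10 of these lay inside the gene. Within 500 bp of the TSS of a coding gene outside the families there were 17, another 6 lay in a host gene without such a TSS, and 28 in neither. Within 500 bp of a receptor gene's own TSS there were 15, of which 8 had no start of a coding gene outside the families within 500 bp. These places were not counted over all pooled summits. With summits within 500 bp of another coding gene's TSS set aside as above, 22 receptor genes (12.3%) kept a pooled summit, against 44.9% of all protein-coding genes. The strongest pooled summit per gene had a median signal of 42.3 for the 32 receptor genes, against 87.7 for the 8839 protein-coding genes with one. Here too the strongest was taken from unequal numbers, at most 3 summits per receptor gene and up to 109 per gene among all. The median signal over all pooled regions was 34.2.

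Below the optimal list the strongest summits belonged to a cluster of gustatory receptor genes on 3R. Gr93b had a signal of 76.2, 920 bp past its 3′ end, just under the 79.3 of the weakest optimal region, and Gr93a, which is needed to taste caffeine, had 63.3 at 775 bp past its end. The nearest start of a coding gene outside the families was 14665 bp away at Gr93b and 12114 bp away at Gr93a. At Gr93b the signal was 50.7 (rank 5981) in replicate 1 and 27.5 (rank 9138) in replicate 3, so it was among the 6835 strongest regions of replicate 1 alone. At Gr93a it was 32.6 and 29.8.

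Further ionotropic receptor genes followed, most of them without a neighbouring promoter. Ir85a had a signal of 60.7 at a summit inside introns of Pif1A and Pif1B, 978 bp upstream of its own TSS. Ir94e, which starts at 23405509 on 3R, had 50.9. Ir94f, which starts at 23481865 and neighbours Ir94g and Ir94h, had 38.2. The summit of Ir94f lay 363 bp upstream of its own TSS and 9224 bp from the nearest start of a coding gene outside the families. Ir60a had 42.2 at a summit 227 bp upstream of its TSS in an intron of nord. Ir68a, a receptor of humidity-sensing neurons, had 38.4 at 791 bp upstream, within the noncoding RNA CR44718. That summit lay 293 bp from the TSS of another noncoding RNA, CR44719.

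At several taste and odorant receptors the weak summit again lay at a neighbour. Gr63a, a subunit of the CO2 receptor, had a pooled summit of signal 43.9, 299 bp upstream of its TSS but 2 bp from that of Lamtor4. Gr21a, the other subunit, had none in any of the 4 lists. Gr61a, a sugar receptor, had 39.7 at 67 bp upstream and 24 bp from the TSS of JMJD5, and Gr97a had 37.5, 3 bp from the TSS of CG5521. Or46a, a receptor of maxillary palp neurons, had 45.3, 313 bp past its 3′ end and 49 bp from the TSS of CG18011. Gr10a and Or10a have the same annotated span and shared a summit of signal 42.3, 459 bp upstream, with the nearest other coding start 4951 bp away. Gr77a had 36.5 in an exon outside its coding sequence, itself in an intron of CG13252, and Gr39b had 33.9 at 385 bp upstream of its TSS. The summits of Gr63a and Gr97a lay in exons of Lamtor4 and CG5521, outside the coding sequence. That of Or46a lay in the coding sequence of CG18011. Replicate 1 had no region overlapping those of Or46a and Gr39b, and replicate 3 none overlapping those of Gr97a and Gr77a. At Gr63a the rank was 12303 in replicate 1 and 26118 in replicate 3.

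**Figure D5:**
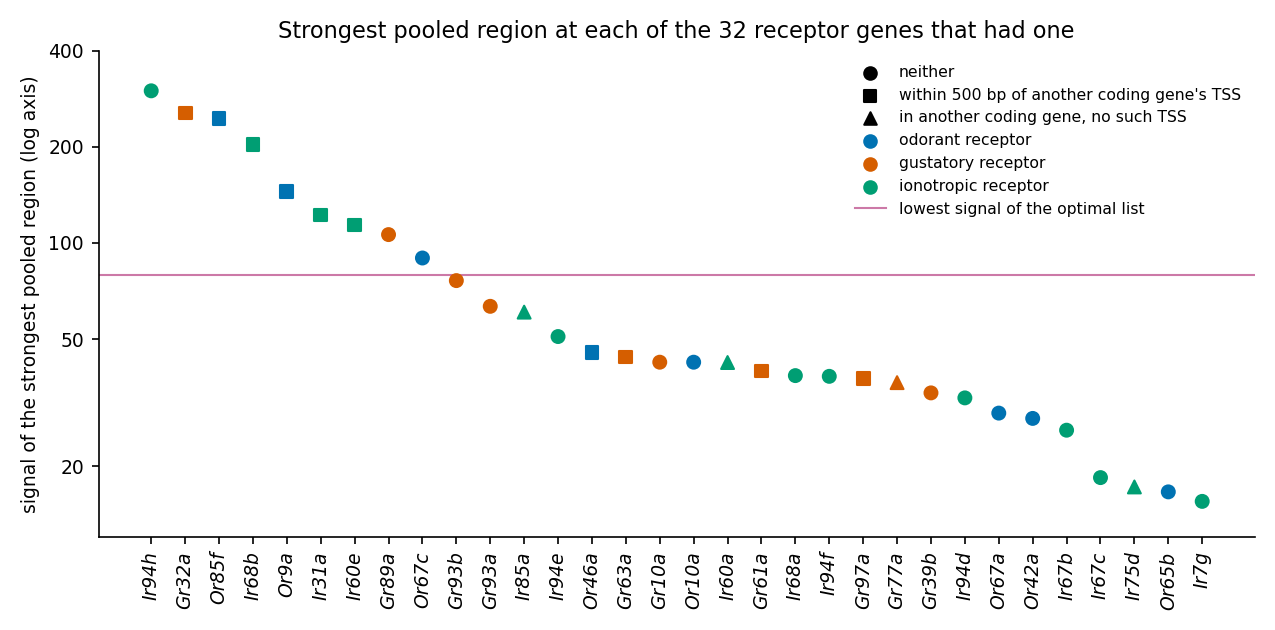
Signal of the strongest pooled region (vertical axis, log scale) at each of the 32 receptor genes with a pooled summit inside or within 1 kb, in order of signal; colour gives the family, squares mark summits within 500 bp of another coding gene's TSS, triangles summits in another coding gene without such a TSS and circles the rest. The line at 79.3 is the lowest signal of the optimal list: 9 genes stand above it, and Gr93b at 76.2 is the closest below.

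The replicate lists were also compared gene by gene. A summit was found in both replicate lists at 23 receptor genes (12.8%), against 53.8% of all protein-coding genes. It was found in replicate 1 alone at 5 (2.79%, against 8.07%) and in replicate 3 alone at 27 (15.1%, against 12.8%), so that the last share lay near that of all genes. Among only those with a summit in replicate 3, however, 27 of 50 receptor genes had none in replicate 1, against 1789 of 9287 protein-coding genes. In replicate 3 and neither in replicate 1 nor in the pool there were 21, namely 9 odorant, 6 gustatory and 6 ionotropic receptor genes, with signals from 11.1 to 27.4 and a median of 12.2 in a list whose lowest signal is 10.7. All protein-coding genes were not counted in this way, so the 21 genes and their split by family are not read as a difference. The strongest of them was at Or88a (signal 27.4, rank 9151), a receptor of antennal neurons that respond to fly odours.

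The 5 co-receptor genes had neither an optimal nor a pooled summit, against 34.1 and 63.4% of all protein-coding genes. With 5 genes, the set is too small for its share to be read as a difference. Ir25a had 2 summits in the list of replicate 1, the stronger with a signal of 26.9 (rank 11632), and none in that of replicate 3. Ir93a had 1 in each replicate list, with signals of 8.94 in replicate 1 and 13.9 in replicate 3, and Ir8a and Ir76b had none. Orco had 1 in the list of replicate 3 alone, with a signal of 35.4 (rank 7145), 840 bp from its TSS. The summit of Orco and the stronger one of Ir25a exceeded the median signal of their lists (18.3 in replicate 3 and 20.5 in replicate 1), and both summits of Ir93a were below it.

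Receptor genes were also counted by role, in a larval list and in lists not tied to a stage. Of 25 odorant receptor genes expressed in larval olfactory neurons 0 had an optimal summit, against 34.1% of all protein-coding genes, and 1 had a pooled summit, against 63.4%, namely Or42a (signal 28.2), a receptor for fruit esters. Of 9 sugar receptor genes 0 had an optimal summit and 1, Gr61a, a pooled one. Among 17 antennal ionotropic receptor genes 1 had an optimal summit, that of Ir31a at the RpS27A promoter, and 3 a pooled one. Of 6 receptor genes for temperature and humidity 0 had an optimal summit, and Ir68a had a pooled one.

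Other genes of chemosensation were counted in the same way. Of 51 odorant-binding protein genes 1 had an optimal summit, Obp83g, and 14 (27.5%) a pooled one, against 63.4% of all protein-coding genes, and their median length was 788 bp. Among 30 pickpocket channel genes, some of which serve taste and pheromone detection, 5 had an optimal summit, and among 20 CheA and CheB genes 3. Of the 2 SNMP genes, which encode membrane proteins of pheromone-sensing neurons, 0 had one. Of 13 synaptic glutamate receptor genes, the relatives of the ionotropic receptors, Nmdar1 and Nmdar2 had an optimal summit. In this order the shares were 1.96, 16.7, 15, 0 and 15.4%, against 34.1% of all protein-coding genes. The pooled shares were 27.5, 43.3, 40, 50 and 30.8%, against 63.4%. Each was lower than that of all genes, but most sets are small and no difference was tested. The median lengths were 788, 2240, 789.5, 6415.5 and 6045 bp, against 2166 bp.

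Summits were also counted at genes that act on receptor choice. Of 11 transcription factor genes that direct sensory neuron fate or the choice of olfactory receptors, 6 (54.5%) had an optimal summit, against 34.1% of all protein-coding genes. They were zf30C (signal 607.1, 57 bp from its TSS), Xbp1 (217.7, 125 bp), lz (147.4), Eip93F (130.5), pdm3 (105.2) and sim (94.9), the last 4 more than 4 kb from their own TSSs. For acj6, which encodes a POU factor, a pooled summit of signal 32.9 was the strongest. Of 9 genes of the Myb-MuvB/dREAM complex, which restricts the CO2 receptor genes to their neurons, 7 (77.8%) had an optimal summit, among them mip120 (107.7) and mip130 (103.8). The median lengths in these lists, 9095 and 2992 bp, exceed the 1691 bp of the receptor genes and the 2166 bp of all protein-coding genes. The part of gene length in these shares was not tested. With 11 and 9 genes, the lists are too small for their shares to be read as a difference from all genes.

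The low share was found on every large arm. Receptor genes with an optimal summit numbered 2 of 31 on 2L, 1 of 46 on 2R, 2 of 35 on 3L, 3 of 42 on 3R and 1 of 25 on X, against 31.4, 33.5, 34.9, 35.3 and 35.4% of all protein-coding genes on the same arms. Chromosome 4 carries no receptor gene of these families.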

How the data were processed

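The files analysed were the authors' dm6 lists of called regions for both replicates, their pool and the optimal set. Per the listings deposited with them, alignments of the replicates and of a control went into the region calls, and an irreproducible discovery rate (IDR) step over the replicate and pooled lists gave the optimal list. No source used here names the aligner, the peak caller or the threshold. The authors' signal value gives a region's strength on a scale they do not state, and it was compared only within 1 list. The summit is the deposited offset added to the region's start. Read depth is unknown, so no interval covers it. The dm3 lists were not analysed here, for want of a dm3 annotation.

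Genes came from Ensembl release 115 (BDGP 6.54), which shares its coordinates with dm6, and no region passed the end of its arm in the Release 6 sequence. A gene counted as having a summit when one lay inside it or within 1 kb. Signals were ranked within each list, and top-ranked regions of a replicate were its 6835 strongest. Clopper-Pearson and Poisson intervals (95%) cover counting error over genes or regions alone, and neighbouring genes are not independent. Python 3.11.15, pandas 2.3.3, numpy 2.4.6 and scipy 1.17.1 were used, and the assignment step was tested on planted summits. There is 1 group, so no test between conditions was made. All receptor genes with an optimal summit were named, then the 15 with the strongest pooled summit below that list, and the co-receptor and CO2 receptor genes. The genes and lists were chosen with earlier results of these data known.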

Additional observations from a re-analysis of the deposited data

How the results depend on the processing

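The count of 9 receptor genes with an optimal summit was 0 inside the gene alone, 4 with windows of 500 bp, 17 with 2 kb and 40 with 5 kb, against 14.9, 30.8, 40.5 and 55.3% of all protein-coding genes. It was 4 (2.23%) when the list was restricted to its regions of above-median signal, against 21.2% of all genes. Within 1 kb of the own TSS it was 4 (2.23%), against 26.8%. Without summits near another TSS it was 3 (1.68%), against 18.5%. With each replicate in place of the optimal list it was 8 to 9, against 33.4 to 34.5% of all genes. By overlap of the region it was 11 (6.15%), against 35.2%. The pooled count of 32 was 8 inside the gene, 51 with 2 kb, 89 with 5 kb and 28 to 50 from single replicates, against 35.5, 70.2, 81.7 and 61.8 to 66.6% of all genes. The receptor share was lower than that of all genes in each of these settings. These pooled shares of all genes were added after seeing the data. No paired analysis was possible because the labels give 1 group. Depth is unknown, so a weak region missing from a list is not shown to be absent.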
